A study of Saccharomyces cerevisiae with 13 samples.

Results

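The maltose and isomaltase genes of budding yeast (Saccharomyces cerevisiae) were followed across 13 lists of DNA double-strand break peaks. They are MAL11, MAL12, MAL13, MAL31, MAL32, MAL33, IMA1, IMA2 and IMA5, 9 of 6431 nuclear genes in the annotation. The genes were chosen by their family with the called peaks of these same lists already known, so every count of peaks at them is a description with no test. A gene counted as reached when a peak overlapped its body or the 500 bp on either side of it by at least 1 bp.

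A MAL locus is a small cluster of 3 kinds of gene near a chromosome end. An activator binds DNA and switches the locus on when maltose is present, a permease carries maltose into the cell, and a maltase splits it into glucose. The IMA genes code for isomaltases, related enzymes that split the other linkages between glucose units. In glucose medium the MAL genes are held off by glucose repression, and in laboratory strains they lie in subtelomeres, the gene-poor stretches beside telomeres that hold families of near copies.

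Breaks were mapped by Break-Seq, in which DNA ends in agarose plugs are filled with biotinylated nucleotides, captured and sequenced. The strains were WFA72 (MEC1, called WT here) and WFA73 (mec1-1, called mec1 here), the latter deficient in the Mec1 checkpoint kinase. Other markers of the strains are not stated in the labels. Cells grew in YPD, a rich glucose medium, and 3 µM of the pheromone alpha factor arrested them in G1. After release they spent 1 h in 200 mM hydroxyurea (HU), which limits nucleotide supply. Recovery samples (R) had a further 1 h after HU was taken away.

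Lists called from an HU library alone came from mec1 (Exp A, Exp B and Control, 138, 151 and 265 peaks) and from WT (Exp C and Control, 103 and 43 peaks). Recovery lists set the R library over its own experiment's HU library, in mec1 (Exp A and Exp B, 198 and 209 peaks) and in WT (Exp C, 137 peaks). The Control experiment also gave, for each strain, a list called over mock labelling (472 peaks in mec1, 60 in WT) and one over G1 (547 and 90). Sample titles name these last lists by the comparison material and their descriptions by the HU library compared with it; the descriptions were followed. The last list (1296 peaks) is of G1 DNA from mec1 in Exp A that was digested with BamHI, a restriction enzyme. Read depth is unknown, the lists covered between 0.905% (WT HU Control) and 18.7% (mec1 HU over G1) of the genome, and list length and depth cannot be told apart. The labels do not state whether lists of a group came from separate cultures, so SDs may reflect technical spread only.

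The 9 genes lay in 4 places on the sacCer3 build. The MAL3 cluster was at the right end of chromosome II, with MAL33 (activator) at 800523 to 801929, MAL31 (permease) at 802631 to 804475 and MAL32 (maltase) at 805351 to 807105. The MAL1 cluster was at the right end of chromosome VII, with IMA1 at 1067222 to 1068991, MAL13 (activator) at 1070293 to 1071714, MAL11 (a permease for several alpha-glucosides) at 1073963 to 1075813 and MAL12 (maltase) at 1076599 to 1078353. IMA5 was at the left end of chromosome X (24341 to 26086) and IMA2 at the left end of chromosome XV (22525 to 24294). All 9 are protein-coding. The nearest to a chromosome end was MAL32, at 4.4 kb, and the farthest was IMA5, at 24.3 kb, with ends taken as the furthest gene or peak seen on the chromosome.

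Every mec1 HU list reached the same 3 genes, MAL33, MAL31 and IMA5, which is 33.3% of the members in each list (3 ± 0 genes, SD, n = 3 lists). The share of all nuclear genes reached by the same rule was 6.45% in Exp A, 7.35% in Exp B and 12.9% in Control. Over all genes, 2.33% were reached in every mec1 HU list, and 1.88% in every mec1 HU list and in no WT list. Genes close to chromosome ends were reached more often than genes at large. Among the 331 genes no farther from an end than IMA5, the shares were 13.6% in Exp A, 12.4% in Exp B and 36% in Control, and 9.06% were reached in all 3 lists. As MAL33 and MAL31 share a single peak in each list, the 3 genes stand for 2 of the 4 places.

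**Figure D1:**
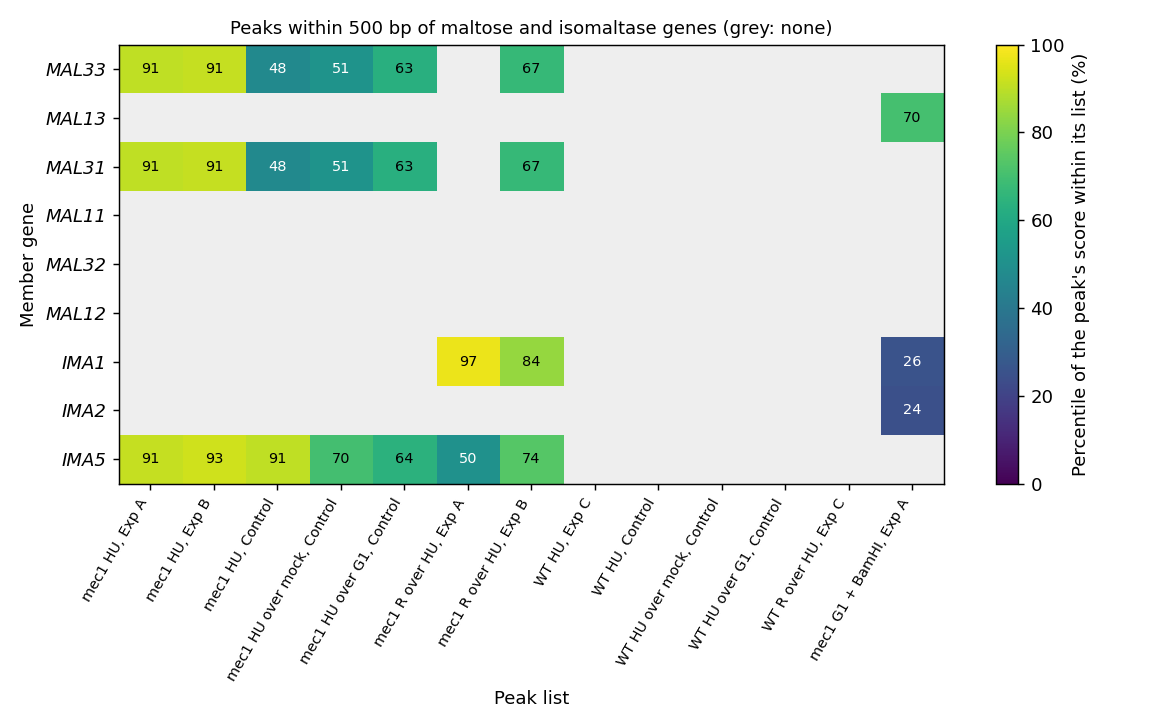
Peaks within 500 bp of each member gene (rows) in each of the 13 lists (columns); numbers and colour give the percentile of the peak's score within its own list, and grey means that no peak reached the gene. MAL33, MAL31 and IMA5 are filled in all 5 mec1 HU columns, IMA1 is filled in both mec1 R columns, and the 5 WT columns are empty.

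At the MAL3 cluster the break peak lay over the activator and ran into the permease from behind. In mec1 HU Exp A it spanned chromosome II 798962 to 802749 (3788 bp, score rank 14 of 138 peaks). In Exp B it spanned 800365 to 803650 (3286 bp, rank 14 of 151). In Control it spanned 799242 to 803835 (4594 bp), and there it ranked only 140 of 265. The scores are the authors' own peak-caller values and are compared only by rank inside a list. The activator gene and its place in the ranking therefore agreed between Exp A and Exp B, and the Control peak covered the same gene from the middle of its list.

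MAL33 was covered over 100% of its body in all 3 mec1 HU lists. MAL31 was touched only from its 3′ side. The covered share of its body was 6.45% in Exp A (119 bp), 55.3% in Exp B (1020 bp) and 65.3% in Control (1205 bp), and its start lay outside the peak each time. MAL31 therefore counted as reached in Exp A through its last 119 bp. The stretch common to the 3 peaks was 800365 to 802749 (2385 bp), which holds all of MAL33, the 701 bp between the 2 genes and the 3′ end of MAL31.

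MAL32, the maltase gene next to MAL31, was reached in no list. The same peak ended 2.6 kb (Exp A), 1.7 kb (Exp B) and 1.52 kb (Control) short of it. IMA1, described with chromosome VII, was the nearest gene left outside in Exp A, at 1.72 kb. Every member counted as reached had peak over part of its body, and a flank of 500 bp or of 1000 bp gave the same member counts.

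The MAL33 and MAL31 peak was also present when the Control HU library was set over mock labelling (rank 231 of 472) and over G1 (rank 203 of 547), at identical coordinates. These lists use the HU library of the Control list, and 86.8% and 98.1% of the peaks of that list had identical coordinates in them, so they are not further replicates. Of the members, they too reached MAL33, MAL31 and IMA5, against 24.1% of all genes over mock and 26.2% over G1, and 36.6% and 41.1% of genes near chromosome ends.

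In recovery the MAL3 cluster differed between experiments. Exp B had a peak at 799430 to 803768 (4339 bp, rank 70 of 209) covering all of MAL33 and 61.7% of MAL31. It did not stand alone. Another recovery peak of Exp B ran from -15.301 to -5.051 kb of the MAL31 start, almost touching this one, which began at -5.045 kb. Exp A had none, and its nearest recovery peak was 25 kb away from MAL33. Recovery peaks mark signal above the HU library, so a site broken equally at both times is not called, and the absence in Exp A does not show that the site was intact there.

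**Figure D2:**
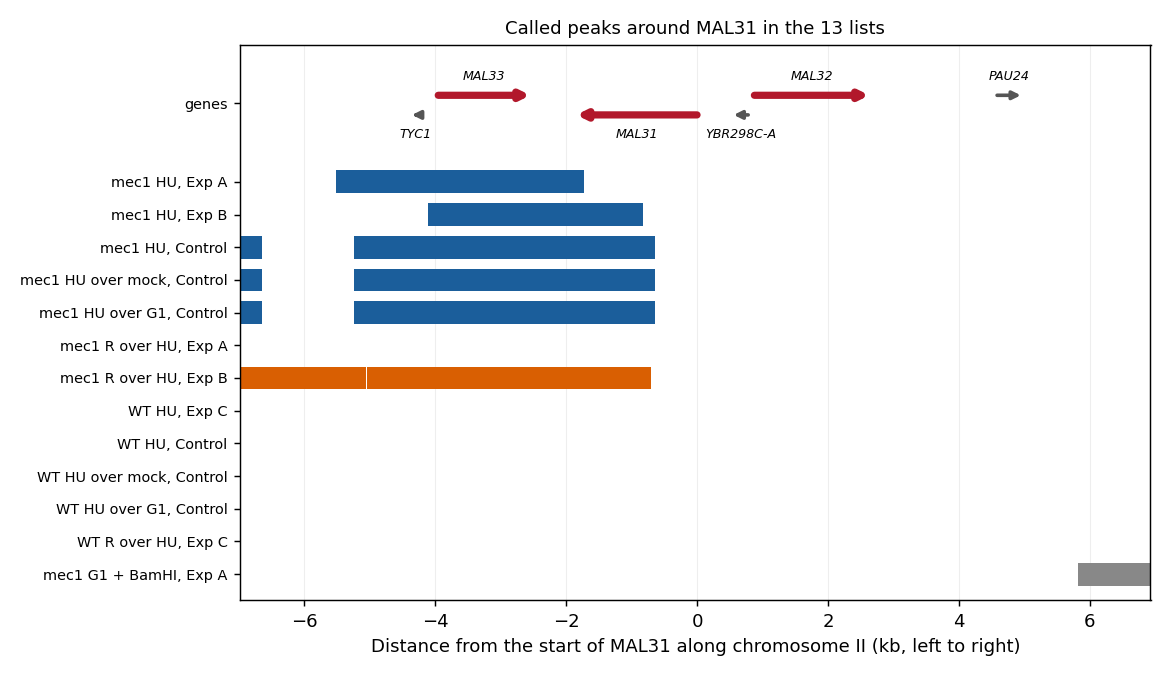
Map of the MAL3 cluster with position along chromosome II in kb from the start of MAL31 (x axis) and 1 row for each list; arrows are protein-coding genes lying wholly in the window (members in red) and bars are called peaks (blue HU, orange recovery, grey BamHI). The HU and recovery bars over MAL33 end over MAL31 at between -1.73 and -0.640 kb, and no bar reaches MAL32. Other bars lie at the left margin (Control mec1 HU, recovery Exp B) and the right margin (BamHI). The left recovery bar of Exp B runs to -5.051 kb, almost touching the one over MAL33, which starts at -5.045 kb.

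IMA5, an isomaltase gene, was reached in 7 of the 13 lists, the most of any member. The peak in mec1 HU spanned chromosome X 20905 to 25616 in Exp A (4712 bp, rank 13 of 138), 22308 to 25650 in Exp B (3343 bp, rank 12 of 151) and 22311 to 25355 in Control (3045 bp, rank 26 of 265). Its score stood at percentiles 91.3, 92.7 and 90.6 of the 3 lists. The rank in Control was higher than that of the MAL33 and MAL31 peak.

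IMA5, like MAL31, was covered from its 3′ end. The peaks took in 73.1% of its body in Exp A, 75% in Exp B and 58.1% in Control, each including the 3′ end and none the start. The common stretch of 22311 to 25355 (3045 bp) also holds all of REE1, whose product is linked to control of an enolase gene, and part of YJL218W. Peak midpoints lay 1081 bp (Exp A), 362 bp (Exp B) and 508 bp (Control) beyond the 3′ end of IMA5, on the REE1 side. The lists give no summits, so where within a peak the signal was highest is not known.

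In both mec1 recovery lists the peak at IMA5 was wider and covered the whole gene. It spanned 20882 to 26381 in Exp A (5500 bp, rank 99 of 198) and 20966 to 26981 in Exp B (6016 bp, rank 56 of 209). Relative to HU of the same experiment it was 1.17 times as wide in Exp A and 1.8 times in Exp B. The HU peak was called from the HU library alone and the recovery peak over it, so these widths are unlike measures. In Exp B the called edge lay 1342 bp farther out on the left and 1331 bp on the right, and the peak touched the hexose transporter gene HXT8. Over the mock and G1 libraries the Control peak at IMA5 ranked 141 of 472 and 196 of 547.

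**Figure D3:**
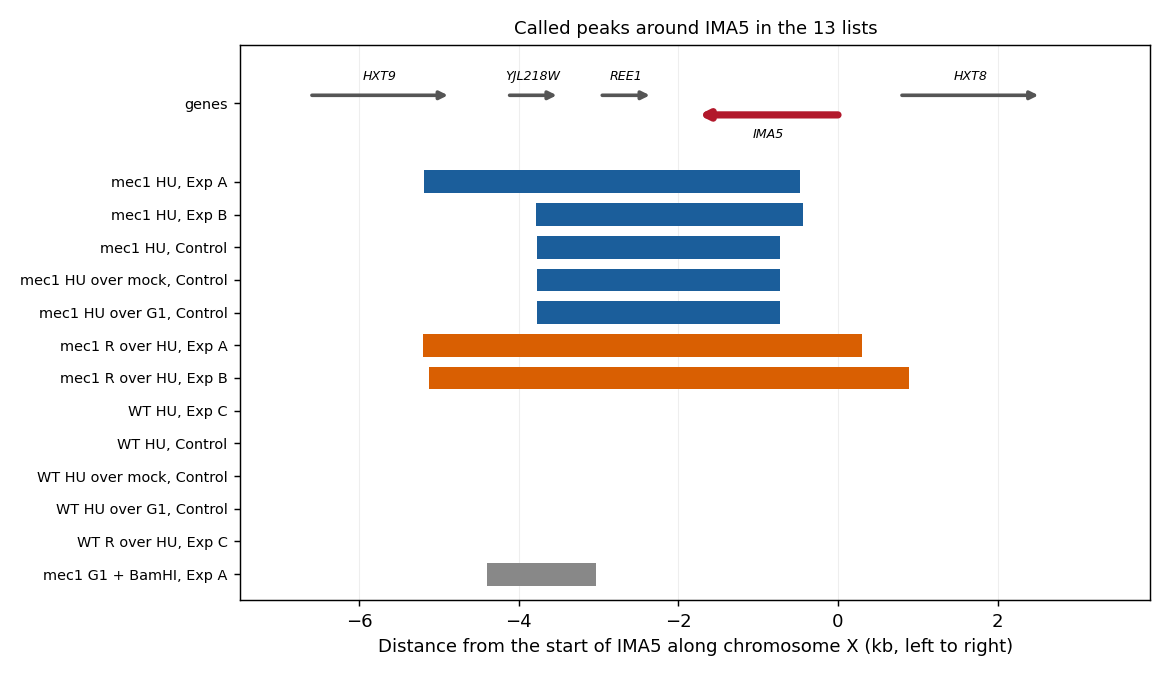
Map around IMA5 with position along chromosome X in kb from the start of IMA5 (x axis) and 1 row for each list; arrows are protein-coding genes lying wholly in the window (IMA5 in red) and bars are called peaks (blue HU, orange recovery, grey BamHI). The HU bars stop inside IMA5, and both recovery bars pass its start.

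IMA1, which codes for the main isomaltase, was reached in both mec1 recovery lists and in no HU list. Recovery lists reached 2 members in Exp A (IMA1 and IMA5) and 4 in Exp B (MAL33, MAL31, IMA1 and IMA5), 3 ± 1.41 genes (SD, n = 2). The share of all genes reached was 11.9% in Exp A and 12.6% in Exp B, and 4.71% were reached in both. For genes near chromosome ends the shares were 19%, 15.4% and 6.34%. These peaks were among the strong ones of their lists. In Exp A the peak at chromosome VII 1061604 to 1067468 shared the top score of 3100 with 11 other peaks, and in Exp B 1060934 to 1067564 ranked 34 of 209.

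The recovery peak at IMA1 lay on a site already called in HU. All 3 mec1 HU lists had a peak over BIO2, the biotin synthase gene, and ZUO1, a ribosome-associated chaperone gene, downstream of IMA1. It ran to 1065501 in Exp A (rank 117 of 138), 1064889 in Exp B (rank 13 of 151) and 1065144 in Control (rank 3 of 265). Its edge stood 1.72, 2.33 and 2.08 kb short of IMA1. In recovery the called edge facing IMA1 lay 1967 bp farther out in Exp A and 2675 bp in Exp B. The recovery peak took in the last 247 bp (14%) and 343 bp (19.4%) of IMA1. The recovery interval was 1.62 times as wide as the HU interval in Exp A (5865 against 3619 bp) and 2.24 times in Exp B (6631 against 2960 bp).

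Wider called intervals in recovery were general in these lists. HU peaks were called from the HU library alone and recovery peaks over it, so the widths differ in calling as well as in time. The part of each was not tested. Of HU peaks matched to a single recovery peak of the same experiment, 82 of 89 in Exp A and 55 of 61 in Exp B were wider in recovery, with a median ratio of 1.5 in both experiments. The middle 50% of ratios ran from 1.18 to 1.86 in Exp A and from 1.19 to 2.01 in Exp B. The ratios at the member sites ran from 1.17 to 2.24. That at IMA1 in Exp B (2.24) lay above the middle 50% of its experiment, and that at IMA5 in Exp A (1.17) just below. The others lay inside it, at 1.62 (IMA1, Exp A), 1.8 (IMA5, Exp B) and 1.32 (MAL33 and MAL31, Exp B). The spread beyond the middle 50% was not examined. The call of IMA1 in recovery is therefore the outer edge of a called interval whose midpoint lay within BIO2, 2686 bp (Exp A) and 2973 bp (Exp B) beyond the 3′ end of IMA1.

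The other genes of the MAL1 cluster were reached by no HU or recovery peak. MAL13, the activator, stood 4.79 to 5.4 kb from the nearest mec1 HU peak and 2.83 and 2.73 kb from the recovery peak over IMA1 in Exp A and Exp B. MAL11, the permease, stood 5.64 to 9.07 kb from any mec1 HU peak. MAL12, the maltase, had its nearest HU peak at 4.32 kb (Exp A), 11.7 kb (Exp B) and 3.1 kb (Control). In Exp A and Control that peak overlapped COS6, a gene of a subtelomeric membrane protein family, on the telomere side. In Exp B the nearest was the peak over BIO2, on the other side of the cluster. The stretch from MAL13 to MAL12 thus held no HU or recovery peak, whereas in the MAL3 cluster the activator was the gene wholly covered.

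The absence at MAL12 and MAL32 has a limit of mapping. The maltase genes are near copies of each other, and the labels do not say how reads fitting several places were treated. IMA1 and IMA2, isomaltase genes of 1770 bp each, were not compared in sequence. The same limit may therefore hold for their absence from the HU lists. The part of read placement in these counts was not tested.

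**Figure D4:**
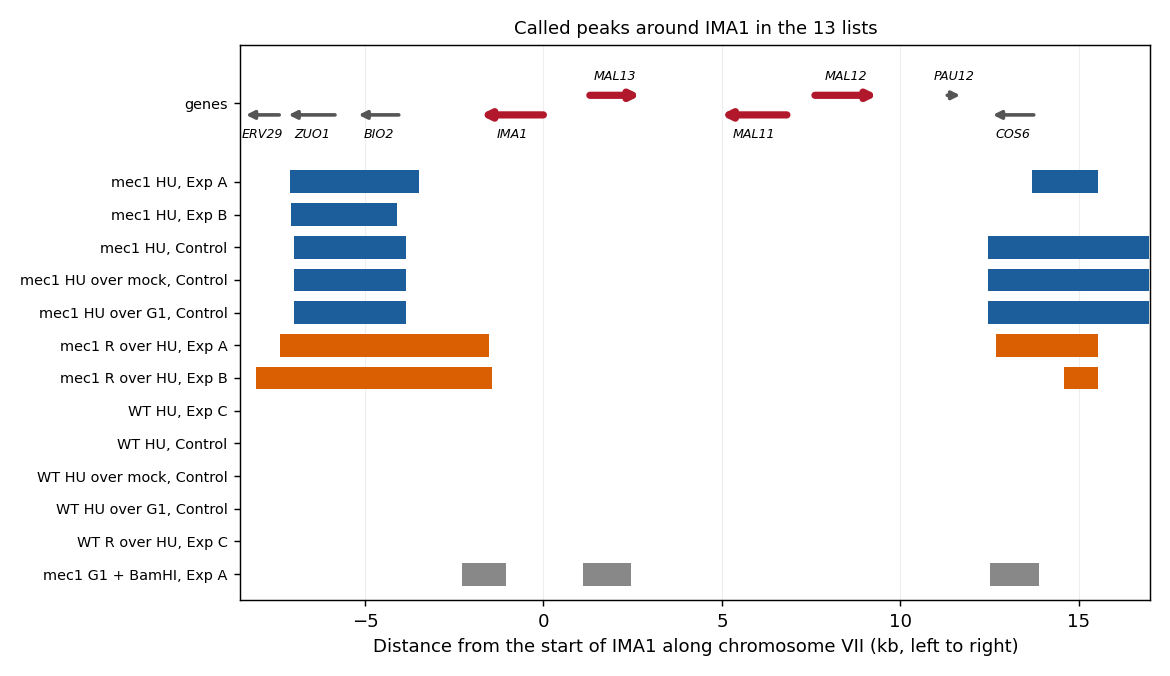
Map from ERV29 to COS6 with position along chromosome VII in kb from the start of IMA1 (x axis) and 1 row for each list; arrows are protein-coding genes lying wholly in the window (members in red) and bars are called peaks (blue HU, orange recovery, grey BamHI). The HU bars over BIO2 stop short of IMA1, the recovery bars touch its 3′ end, and only the BamHI row has a bar over MAL13.

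IMA2 on chromosome XV was also missed at close range. Its nearest mec1 HU peak took in only the 3′ part of ENB1, a siderophore transporter gene, and in Exp A and Control also overlapped CSS3. The peak stood 2.71 kb from IMA2 in Exp A (rank 24 of 138), 2.64 kb in Exp B (rank 57 of 151) and 2.47 kb in Control (rank 40 of 265). Recovery in Exp A had a peak at the same place with its edge 1.98 kb from IMA2 but with rank 194 of 198, and in Exp B the nearest was 11.6 kb away. All 3 isomaltase members thus had a mec1 HU peak on their 3′ side, over IMA5 itself but only beside IMA1 and IMA2, over other genes. The share of all genes with their nearest peak on the 3′ side was not computed, so this is a description only.

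Distance to the nearest peak, which needs no 500 bp limit, was also shorter for the members than for genes at large in mec1 HU. Over the 9 members its median was 2.6 kb in mec1 HU Exp A, 2.33 kb in Exp B and 2.08 kb in Control. The median over all nuclear genes was 27.7, 24.8 and 14.2 kb in the same lists. The farthest member was 6.86, 11.7 and 5.64 kb from a peak. No median was taken over genes near chromosome ends, which were reached more often in mec1 HU. The shorter distance is thus not shown to be particular to the members. Members of a cluster share their neighbouring peaks, so these are 4 places and not 9 separate measurements, and they were chosen with the peaks known.

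No member was reached in any of the 5 WT lists, of which the Control lists called alone, over mock and over G1 share an HU library. The share of all genes reached was 6.73% in WT HU Exp C, 1.87% in WT HU Control, 2.63% over mock, 3.56% over G1 and 5.4% in recovery. WT peaks were also rare near chromosome ends, where 2.42% (Exp C), 1.51% (Control), 0.604% (over mock), 0.906% (over G1) and 3.93% (recovery) of the 331 end-proximal genes were reached. At shares this low, the absence does not set the members apart from other genes. WT HU Exp C covered 3.97% of the genome, close to the 4.09% of mec1 HU Exp A, in which 3 members were reached. These lists come from different experiments, so strain and experiment cannot be told apart between them. In the Control experiment, which had both strains, the HU list covered 0.905% of the genome in WT and 8.02% in mec1.

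In WT the nearest peaks were far away. MAL33 lay 309 to 516 kb from any WT peak over the 5 lists, with a median of 309 kb. Of the WT HU Control peaks, 76.7% had identical coordinates over mock and 90.7% over G1. The peak nearest to MAL33 was the same in these Control lists. They are not separate measurements, and medians over the WT lists lean on their shared library. IMA1 lay 152 to 285 kb away (median 172 kb) and IMA5 16.6 to 364 kb (median 167 kb). IMA2 came closest, at 9.74 kb from a peak of WT HU Exp C over ZPS1. The median over the 9 members was 292 kb in WT HU Exp C against 38.6 kb for all nuclear genes, and 179 against 93 kb in WT HU Control. The 93 kb is over the 5549 genes on chromosomes that held a peak in that list. In both WT HU lists the members' median was thus above that of the genes compared, although IMA2 (9.74 kb in Exp C and 83.7 kb in Control) and IMA5 (16.6 kb in Control) lay nearer. WT peaks were rare near chromosome ends, and no median over end-proximal genes alone was taken. In the 3 mec1 HU lists all 9 members were nearer than the median gene.

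**Figure D5:**
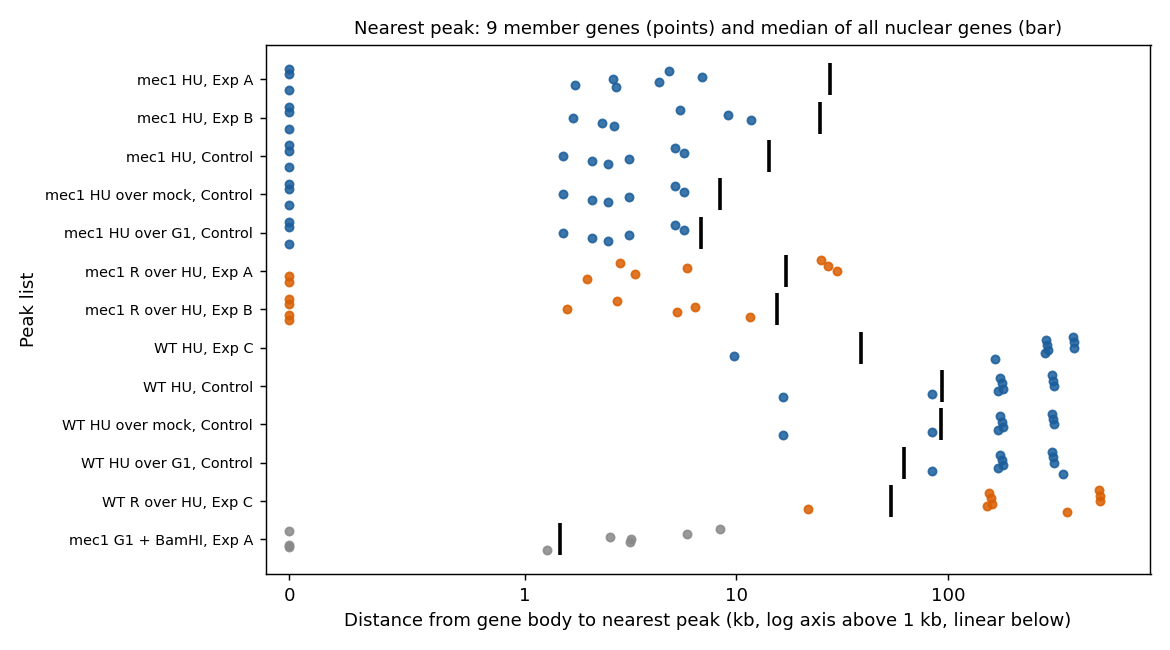
Distance in kb from each of the 9 member genes to the nearest peak of each list (points, x axis logarithmic above 1 kb and linear below), with the median over all nuclear genes on chromosomes that hold a peak as a black bar. In the mec1 HU rows all points lie left of the bar, at 11.7 kb or less, while in the WT rows most points lie to its right.

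The BamHI list, from DNA cut at the enzyme's sites, reached IMA1, MAL13 and IMA2, 3 of 9 members against 35.7% of all genes and 30.8% of genes near chromosome ends. The peaks were narrow, at 1249 bp over the 3′ end of IMA1, 1344 bp over MAL13 and 1281 bp over the 3′ end of IMA2. The MAL13 peak had a score of 3100, held by 724 of the 1296 peaks, which tied at rank 22. Those of IMA1 and IMA2 ranked 965 and 981 of 1296. Peaks were thus called there inside MAL13 and IMA2, which no HU or recovery list reached. No BamHI peak reached MAL33, MAL31 or IMA5. The BamHI peak nearest to IMA5, at chromosome X 21692 to 23061, ended 1.28 kb from the gene and overlapped the mec1 HU peaks there.

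The 2 sites that reached members in every mec1 HU list both held a convergent gene pair. MAL33 and MAL31 converge, with their 3′ ends 701 bp apart, and REE1 and IMA5 converge across 611 bp. Every HU and recovery peak at these sites held the whole gap. BIO2 and IMA1, beside the site that was also called in every mec1 HU list, are instead read in the same direction with 2281 bp between them. The mec1 HU peaks at IMA5 also held the tandem gap between YJL218W and REE1. Those at MAL33 and MAL31 also held the divergent gap between TYC1 and MAL33 in Exp A and Control, but not in Exp B. Convergent gaps were common in peaks at large. They were held by 47.1% (Exp A), 41.7% (Exp B) and 35.5% (Control) of mec1 HU peaks and by 53.5% and 53.6% of mec1 R peaks in Exp A and Exp B, so the arrangement is not particular to these loci. Tandem gaps were held by 43.5%, 46.4% and 48.7% of mec1 HU peaks in Exp A, Exp B and Control, and divergent gaps by 24.6%, 33.1% and 27.5%. Peak midpoints in HU lay at -1425 bp (Exp A), -273 bp (Exp B) and -742 bp (Control) from the centre of the MAL33 and MAL31 gap, where negative values are on the MAL33 side. From the centre of the TYC1 and MAL33 gap they lay at 473 bp in Exp A, nearer than to the convergent gap, and at 1156 bp in Control. From the centre of the REE1 and IMA5 gap they lay at -775, -56 and -202 bp, on the REE1 side.

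Other genes of the pathway were counted from a list of 23, of which 7 act in the use of alpha-glucosides and sucrose and 16 in glucose sensing and repression. In mec1 HU 1 was reached in Exp A, 1 in Exp B and 5 in Control (2.33 ± 2.31, SD, n = 3). These are 4.35%, 4.35% and 21.7% of the list, against 6.45%, 7.35% and 12.9% of all genes. Without the Control list the mean was 1. The gene in Exp A was MIG3, which codes for a relative of the glucose repressor Mig1, and that in Exp B was RGT2, a glucose sensor gene. Those in Control were IMA3, IMA4, MPH2, MPH3 and YPR196W. IMA3 and IMA4 are isomaltase genes, MPH2 and MPH3 code for maltose permease relatives, and YPR196W is a relative of the MAL activators.

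These 5 subtelomeric relatives were thus called in HU in the Control library and in neither Exp A nor Exp B. The peak at IMA3 ranked 12 of 265 and that at MPH3 16 of 265, IMA4 ranked 47, MPH2 35 and YPR196W 185. The Control list also reached the largest share of end-proximal genes of the 3 HU lists called alone, and its processing notes name only BWA, where those of Exp A and Exp B name Bowtie2, BWA and MACS. IMA3 with IMA4 and MPH2 with MPH3 are pairs of near copies, and the part of read placement in these calls was not tested. The members MAL33, MAL31 and IMA5 were called in all 3 libraries.

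In mec1 recovery the pathway list gave 4 genes in Exp A (YPR196W, MIG3, GLC7 and RGT2) and 3 in Exp B (YPR196W, ZNF1 and REG1), 3.5 ± 0.707 (SD, n = 2). These are 17.4% and 13% of the list, against 11.9% and 12.6% of all genes. The RGT2 peak of Exp A had the score of 3100 shared by the top peaks of that list. YPR196W was covered over 100% of its body in both. ZNF1 codes for a regulator of respiratory and sugar genes, and GLC7 and REG1 for the catalytic and a regulatory subunit of the phosphatase that acts against the Snf1 kinase. In WT only MTH1, a regulator of hexose transporter genes, was reached, in HU Exp C (rank 33 of 103). The Control lists over mock and over G1 reached 8 and 9 of the 23 (34.8% and 39.1%, against 24.1% and 26.2% of all genes), adding SNF4, REG1 and MTH1 to the 5 of the HU list, with GLC7 over G1. The BamHI list reached 7 (30.4%, against 35.7% of all genes), which were SUC2, MIG2, SNF1, SNF4, REG1, TUP1 and SNF3. The 6 genes reached in no list were MIG1, HXK2, CYC8, RGT1, STD1 and GRR1.

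The genes most like the members in the set of lists that reached them were found with the Jaccard index (lists reaching both genes over lists reaching either, across all 13 lists). MAL33 and MAL31 had the same 6 lists as DAN1 and DAN4, cell wall mannoprotein genes on chromosome X (index 1). The next 38 genes shared 6 of 7 lists (0.857), and BUD5, a bud site selection gene, is named among them by its higher score percentiles. IMA5 had the same 7 lists as 36 genes, led by BUD5, PHO87 (a phosphate transporter gene) and RBK1 (ribokinase), which are neighbours on chromosome III. IMA1 had the same 3 lists as 18 genes, led by DMC1, ISC10 and PDA1, neighbours on chromosome V. Genes that share a peak count separately here, and with 13 lists many genes have identical sets.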

How the data were processed

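Break-Seq peak lists of 13 samples were used as deposited. The build is sacCer3, per the submitters' processing notes. The notes of the first 7 samples name Bowtie2, BWA 0.6.2 and MACS 1.4.1, and those of the 6 Control samples name BWA. Per the labels, peaks were called with MACS from 1 library alone or against a second library. Caller settings, filters and the treatment of reads fitting several places are not stated. The score of each peak is the deposited value from the authors' caller, its scale is unstated, many peaks share 3100, and it served only to rank peaks within a list. Read counts are not in the lists, so no interval for depth was computed.

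Starts were made 1-based. Genes came from the RefSeq table of the R64 assembly, and all 9 members and 23 pathway genes matched by symbol or systematic name. The table has no strand column, so strand was read from the W or C of the systematic name. Chromosome ends were taken as the furthest gene or peak, which can understate distances at right ends. A peak reached a gene at 1 bp of overlap with the gene and 500 bp either side, and members within 20 kb of each other were 1 locus. Overlap code (Python 3.11.15, pandas 2.3.3) was tested on simulated peaks. All members were named, with every reached pathway gene, genes under member peaks and, for members reached in at least 3 lists, the 3 genes with the highest Jaccard index that were no member and lay on another chromosome or over 20 kb away, ties going to the higher mean score percentile. Members and lists were chosen with earlier results of these data known, so no test was run. Alternatives changed the flank, the overlap, the peak width, the score and the lists included.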

Additional observations from a re-analysis of the deposited data

How the results depend on the processing

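Counts were called moved when they changed by over 1.5 times. With a flank of 1000 bp or at least 200 bp of overlap none of the 36 counts moved. The position within peaks mattered most. With 200 bp around peak midpoints, members reached per list fell to 1.67 in mec1 HU and 1 in mec1 R, loci in mec1 R to 1, and pathway genes in mec1 R to 1.5 and in the BamHI list to 4. MAL31 was then reached in 0 lists and IMA1 in 1, that of BamHI. Without flanks 1 count moved, the pathway genes of the BamHI list, also to 4. With scores of at least 100 the pathway count of mec1 HU was 1.33. Among peaks at or above the median score of each list it was also 1.33, with 2 in mec1 R, the BamHI list reached 1 member and 1 locus, IMA2 was reached in 0 lists, and MAL33 and MAL31 were lost from mec1 HU Control. Leaving out 1 list, the pathway count ranged from 1 to 3 in mec1 HU and from 0 to 1 in WT HU. Members per list stayed at 3 in mec1 HU and 0 in WT HU and ranged from 2 to 4 in mec1 R. Without the Control lists over mock and over G1, a choice made after seeing the data, no count of lists per member moved. Causes were not tested. No paired test was run, because no result comes from a test into which a block could enter. Peak widths in HU and recovery were compared within each experiment. Depth is unknown, so an uncalled gene is not shown to be unbroken.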
